A study of Mus musculus with 12 samples.

Results

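The genes that cut pre-mRNAs at their 3' end and build poly(A) tails were followed in spermatogenic cells of wildtype and Pan2 knockout mice. The module was fixed by gene symbol and had 30 entries, namely subunits of the cleavage and polyadenylation factors and the canonical and noncanonical poly(A) polymerases. A row in the count table was found for 29 of them, and all 29 passed the filter on low counts, among 21291 genes tested of 55291 in the table. The entry Symplk had no row. The table lists symplekin, the scaffold of the cleavage complex, as Sympk, and its values are given beside the module and not counted in it. Levels are CPM (counts divided by the effective library size), and differences between groups are log2 fold changes from a model fitted to all genes.

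Smart-seq2 libraries, which start from oligo(dT) priming of RNA, were made from sorted testis cells at the MII stage of meiosis and from round spermatids (RS), their haploid successors. Wildtype (WT) cells were compared with cells of Pan2flox/-;Stra8-Cre mice (KO), which carry a deleted and a floxed Pan2 allele and a Cre recombinase under the Stra8 promoter, which drives it in germ cells shortly before meiosis. The 4 groups (WT MII, KO MII, WT RS and KO RS) had 3 libraries each. The labels give no strain or age, do not say whether the WT mice carried floxed alleles or Cre, and do not tie replicates to separate animals. The p-values therefore describe the spread among these libraries alone, and that spread may be technical.

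The 3' end of most mRNAs is made in the nucleus. The cleavage and polyadenylation specificity factor (CPSF) reads the AAUAAA signal and cuts, the cleavage stimulation factor (CstF) binds the downstream U- or GU-rich element, and cleavage factors I and II help to choose and use the site. Poly(A) polymerases then add the tail, and noncanonical polymerases of the TENT family can extend tails later, also in the cytoplasm. PAN2 works at the opposite end of this balance, as the catalytic subunit of a deadenylase that shortens tails. Male germ cells are known for unusual poly(A) sites and for testis versions of this machinery, among them Cstf2t, an autosomal retrogene copy of the X-linked Cstf2, and Papolb, a cytoplasmic poly(A) polymerase.

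Total counts per library were between 13781370 and 38652066. Pan2 was between 12.9 and 17.1 CPM in WT MII and between 5.08 and 7.10 CPM in KO MII libraries, without overlap. Its log2 fold change of -1.28 did not pass (SE 0.549, edgeR adjusted p = 0.227), and 22.2% of all tested genes did not overlap at MII. It was between 8.13 and 12.95 CPM in WT RS libraries whereas KO RS replicates 2 and 3 read 4.73 and 3.52 CPM. The library labelled KO RS replicate 1 read 22.6 CPM, the highest of all 12. With it, the log2 fold change of Pan2 in RS was 0.0031 (edgeR adjusted p = 0.998). In this 1 gene, the library labelled KO RS replicate 1 goes against its label, so the calls in RS are also given without it. Summed over 15 Sertoli markers, CPM went from a range of 21.3 to 31.8 (WT) to one of 80.1 to 342 (KO) at MII, and from 6.11 to 7.22 (WT) to 39.3 to 257 (KO) at RS, with KO RS replicate 1 the highest of its group. Amh was at 0 in all 12. The sum of 8 Leydig markers was 43.1 to 59.8 CPM (WT) and 127 to 250 CPM (KO) at MII, and 1.09 to 2.00 CPM (WT) and 1.69 to 10.7 CPM (KO) at RS. Peritubular myoid markers (6 genes) went the other way at MII, with 43.0 to 89.4 CPM (WT) and 10.7 to 22.2 CPM (KO), and were at 3.97 to 5.3 CPM (WT) and 7.2 to 15.5 CPM (KO) at RS. Spermatogonial markers (7 genes) summed to 24.1 to 30 CPM (WT) and 32.7 to 51.1 CPM (KO) at MII, and to 22 to 36.0 CPM (WT) and 39.7 to 52.5 CPM (KO) at RS. Elongating spermatid markers (8 genes) summed to 4920 to 7100 CPM in WT MII against 3050 to 4730 CPM in KO MII libraries. The 7 markers of dividing cells did not separate WT MII (1490 to 1840 CPM) from WT RS libraries (1320 to 1890 CPM), and 8 round spermatid markers were abundant in WT MII libraries too (3210 to 4080 CPM, against 3550 to 4660 CPM in WT RS). In KO RS libraries the dividing cell markers summed to 919 to 1130 CPM, the round spermatid markers to 5240 to 6010 CPM, and the elongating spermatid markers to 3470 to 4270 CPM (5960 to 9100 CPM in WT RS). None of these 3 KO RS ranges overlapped that of WT RS. The part of these shifts in the results below was not tested, and in bulk libraries fewer cells of a type and less RNA per cell cannot be told apart.

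All 29 genes were read in every library, at very different levels. Levels were divided by the annotated exon length, which need not be that of the transcript made, so different genes compare only roughly. Per kilobase of exon, Papolb led every group with 205 ± 22.3 CPM per kb (mean ± SD, n = 3) in WT MII and 180.0 ± 22.3 in WT RS, above 97.7% of all tested genes in WT RS. Tent5c, a noncanonical polymerase of the TENT5 family, came next with 58.2 ± 3.73 CPM per kb in WT MII and 64.5 ± 3.65 in WT RS. Behind it in WT RS came Cstf1, the CstF subunit CstF-50 (47.3 ± 2.43 CPM per kb), Zc3h14, a nuclear poly(A)-binding zinc finger protein (44.9 ± 3.58), and Nudt21, the RNA-binding subunit of cleavage factor I (41.5 ± 5.27), whose spreads overlap. Clp1, a cleavage factor II subunit (32.2 ± 1.71 CPM per kb), Papola, the main nuclear poly(A) polymerase (26.9 ± 1.55), and Tent5d, an X-linked TENT5 family polymerase (24.1 ± 1.75), followed in that order. At the low end of WT RS stood Papolg, a further nuclear poly(A) polymerase, with 0.509 ± 0.0365 CPM per kb, Tent4a, which adds mixed tails, with 0.439 ± 0.0836, and Tent5a with 0.0517 ± 0.0198. Tent5a had between 2 and 22 counts per library, too few to show moderate changes. Between libraries of a group the coefficient of variation of CPM had a median over the 29 genes of 9.24% in KO RS to 13.6% in WT MII. Tent5b was the most variable in WT RS (47.1%), and Papola the least variable in KO RS (0.335%).

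In round spermatids, 9 of the 29 genes changed in KO libraries, 3 higher and 6 lower (edgeR quasi-likelihood test, adjusted p under 0.05). Across all genes, 13.4% were called in this comparison, 6.06% higher and 7.39% lower. Of all called genes, 1290 were higher and 1573 lower, and the split was 1014 and 1953 when libraries were scaled by total count alone. Cstf2t, Fip1l1, Wdr33, Cpsf4, Cstf1 and Nudt21, which act in recognition and cleavage of the poly(A) site, were lower by 1.46-fold to 2.10-fold. Cstf2, Tent5d and Papola were higher by 1.36-fold to 1.63-fold. The groups did not overlap for 16 of the 29 genes, 7 higher and 9 lower, where 36.1% of all tested genes did not overlap (17.8% higher, 18.3% lower). The median log2 fold change was -0.11 over the 29 genes and -0.01 over all tested genes. Without the library labelled KO RS replicate 1, Cstf2t and Fip1l1 were the 2 genes still called (6.9% of the 29), where 4.95% of all genes tested were called, so the share of the module was then close to the background. The count was 3 without KO RS replicate 2 (6.17% of all genes called), 4 without WT RS replicate 1 (6.8%) and 2 without WT RS replicate 3 (5.08%).

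**Figure D1:**
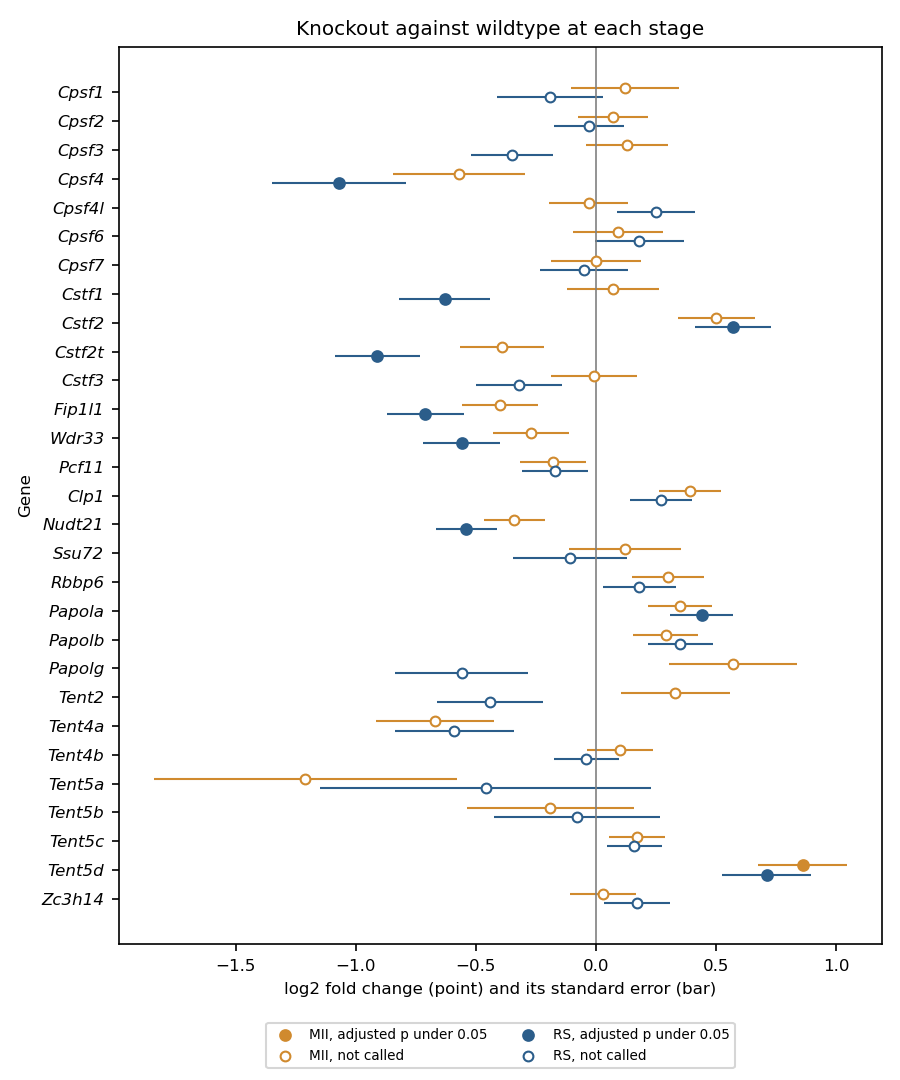
Log2 fold change of KO against WT for the 29 genes, with its standard error as a bar, in MII (orange) and RS (blue), filled where the adjusted p was under 0.05. Cstf2t, Fip1l1, Wdr33, Cpsf4, Cstf1 and Nudt21 lie to the left of 0 and Cstf2, Papola and Tent5d to the right in RS, and Tent5d is the filled point of MII.

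In the CstF complex, Cstf2t and Cstf1 were lower and Cstf2 was higher in KO RS libraries. Cstf2 encodes CstF-64, the subunit that binds the downstream element, and Cstf2t encodes its testis paralogue, which takes on this task when the X chromosome is silenced in meiosis. Cstf2t is a gene with 1 exon on chromosome 19 (mm10, 31082837 to 31087069, plus strand) and Cstf2 has 13 merged exons on chromosome X (134059187 to 134086819, plus strand). Cstf2t read 24.2, 18.7 and 27.8 CPM across WT RS libraries against 11.7, 10.8 and 15.1 CPM across KO RS libraries. The highest KO RS library was below the lowest WT RS library, and the log2 fold change was -0.91 (SE 0.178, edgeR adjusted p = 0.00316). Leaving out the library labelled KO RS replicate 1 gave -0.87 (adjusted p = 0.0228), and the call held without any 1 of the 12 libraries.

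Cstf2 went the other way, from 51.1, 62.2 and 53.4 CPM in WT RS to 76.1, 91.1 and 80.6 CPM in KO RS libraries. Every KO RS library was above every WT RS library (log2 fold change 0.57, SE 0.159, edgeR adjusted p = 0.0231). The call was lost without the library labelled KO RS replicate 1 (0.63, adjusted p = 0.0544) or 2 (0.13), or WT RS replicate 1 (0.14) or 3 (0.0973). Cstf1 read 158, 164 and 175 CPM across WT RS libraries against 96.7, 105 and 121 CPM across KO RS libraries (log2 fold change -0.63, SE 0.190, adjusted p = 0.0347), again without overlap. Its call was lost without KO RS replicate 1 (-0.56, adjusted p = 0.144) or 2 (0.107), or WT RS replicate 1 (0.0599) or 3 (0.107). Cstf3, the CstF-77 subunit that bridges the complex, was at -0.32 (adjusted p = 0.254) with overlapping groups.

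**Figure D2:**
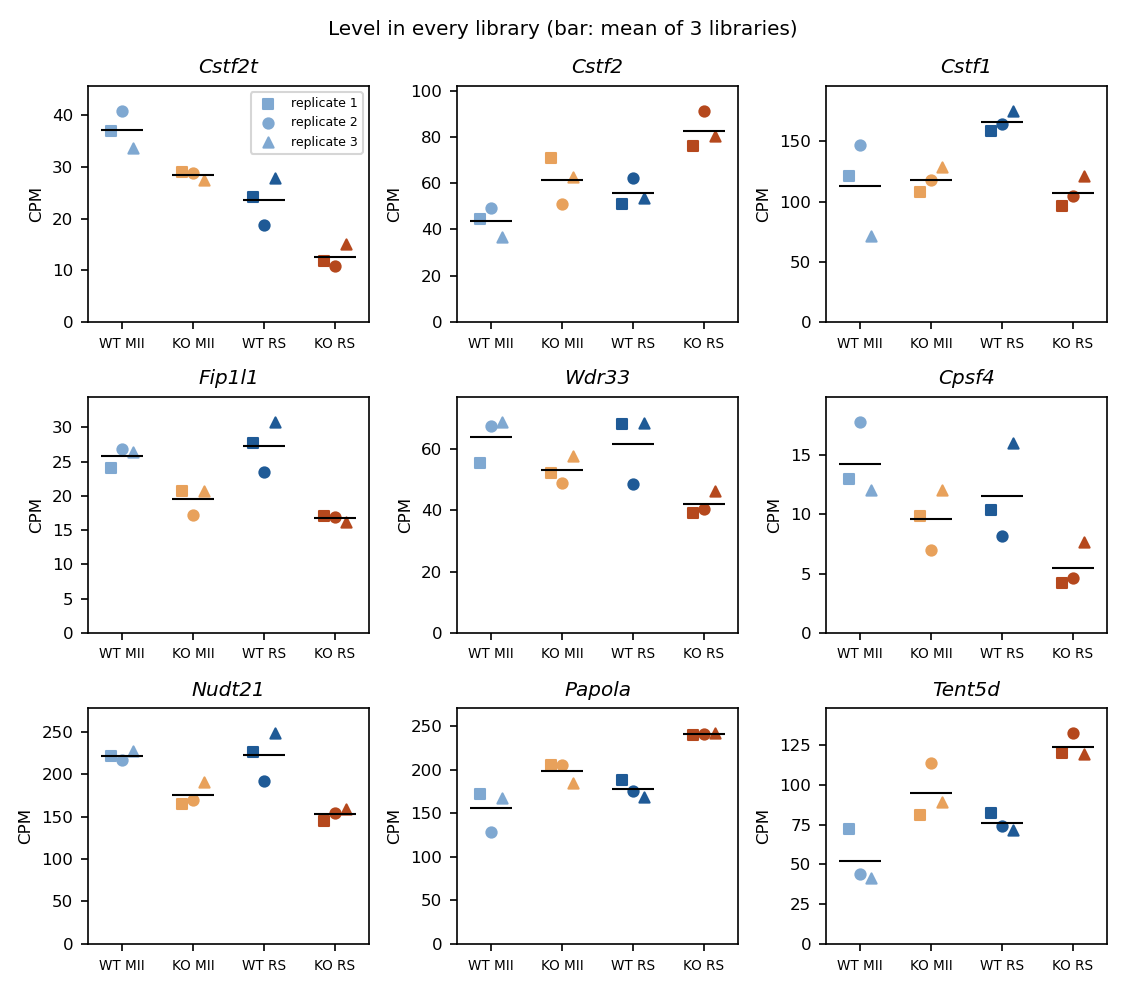
CPM in each of the 12 libraries for the 9 genes called in RS, with replicates 1, 2 and 3 as squares, circles and triangles and the mean of 3 libraries as a bar. In each panel the KO RS points lie wholly below or wholly above the WT RS points, and the KO RS replicate 1 square lies near the other 2 KO RS points.

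The share of Cstf2t in the pair was computed from counts per exon length as Cstf2t divided by Cstf2t plus Cstf2. At MII it was 64.3%, 64.2% and 66.4% in WT against 46.9%, 55.1% and 48.8% in KO libraries. At RS it was 50.7%, 39.5% and 53.0% in WT against 25.0%, 20.5% and 28.9% in KO libraries. KO libraries had the lower share at both stages with no overlap, and RS libraries had the lower share in both genotypes. In the other pairs the share moved less in size. Papolb made up 85.4% to 89.0% of Papola plus Papolb in WT RS and 84.0% to 87.4% in KO RS, where the ranges overlap. Cpsf4l, a little studied paralogue of the CPSF subunit Cpsf4, made up 78.0% to 91.6% of its pair in WT RS and 91.4% to 95.6% in KO RS libraries. These ranges overlap narrowly. In the annotated transcripts, 0 of 4134 stretches of 100 bases of Cstf2t also occurred in Cstf2, and the same count was 0 of 4140 for Papolb in Papola and 0 of 2531 for Cpsf4l in Cpsf4, so perfectly matching reads of that length tell the paralogues apart. Without division by exon length the mean Cstf2t share in WT MII was 46.1%, so which gene of the pair is larger there depends on the length. KO libraries had the lower Cstf2t share at both stages on that scale too. Shares are descriptions and were not tested.

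**Figure D3:**
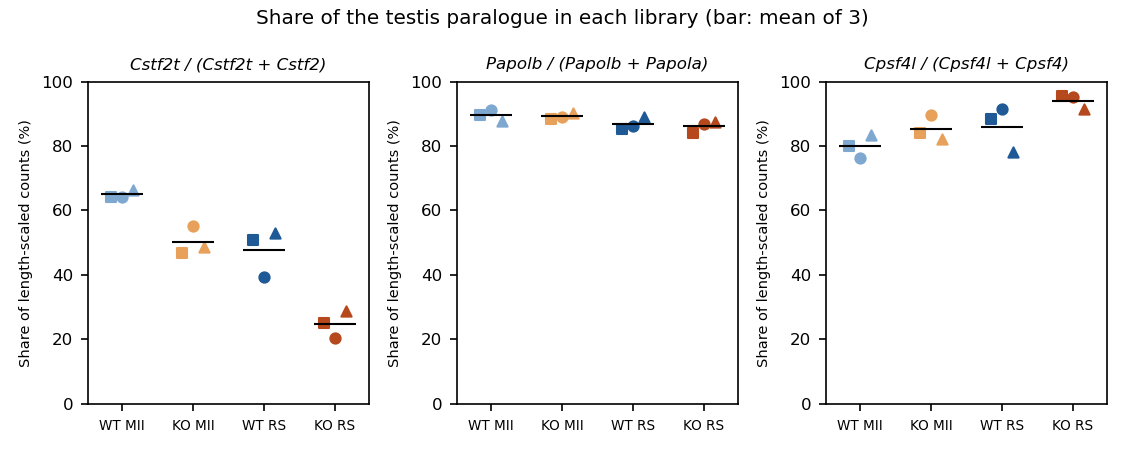
Share of Cstf2t, Papolb and Cpsf4l in 3 gene pairs, in percent of length-scaled counts, for each library (replicates 1, 2 and 3 as squares, circles and triangles) with the mean as a bar. The Cstf2t share is highest in WT MII (64.2% to 66.4%) and lowest in KO RS (20.5% to 28.9%), and the Papolb share stays between 84.0% and 91.2% in all 12 libraries.

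The promoters of Cstf2, Cstf2t and Papola are shown because the first pair moved in opposite directions in KO RS and Papola rose with Cstf2. Each is the window from 250 bases before to 50 bases after the gene start, from RefSeq on GRCm38.p6, at chrX:134058926-134059225, chr19:31082591-31082890 and chr12:105784447-105784746, all on the plus strand. Capitals mark TGACG on either strand (read as CGTCA on the other), the core of the cAMP response element that CREM, a transcription factor of spermatids, binds.
Cstf2: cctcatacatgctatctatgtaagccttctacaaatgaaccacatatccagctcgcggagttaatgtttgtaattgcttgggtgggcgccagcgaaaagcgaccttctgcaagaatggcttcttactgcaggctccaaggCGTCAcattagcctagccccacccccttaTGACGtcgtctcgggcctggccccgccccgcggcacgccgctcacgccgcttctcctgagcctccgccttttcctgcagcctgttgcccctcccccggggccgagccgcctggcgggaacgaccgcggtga
Cstf2t: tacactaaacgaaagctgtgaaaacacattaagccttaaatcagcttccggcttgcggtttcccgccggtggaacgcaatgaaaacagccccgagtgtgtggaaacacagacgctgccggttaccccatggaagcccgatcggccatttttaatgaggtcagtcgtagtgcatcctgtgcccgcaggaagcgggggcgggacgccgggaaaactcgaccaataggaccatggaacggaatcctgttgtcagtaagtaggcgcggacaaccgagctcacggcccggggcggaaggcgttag
Papola: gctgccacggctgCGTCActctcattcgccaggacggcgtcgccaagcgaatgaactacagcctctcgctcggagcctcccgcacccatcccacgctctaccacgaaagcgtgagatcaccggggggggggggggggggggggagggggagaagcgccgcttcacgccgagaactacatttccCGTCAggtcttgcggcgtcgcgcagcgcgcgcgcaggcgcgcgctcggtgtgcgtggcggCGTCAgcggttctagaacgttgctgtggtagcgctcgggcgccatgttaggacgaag
The Cstf2 window held 2 such matches, the Papola window 3 and the Cstf2t window none. Not shown are the windows of Tent5d, which also rose in KO RS and held none, and of Nudt21, which fell and held 1. Windows were found for 27 of the 29 genes (32 windows, with Cpsf1 and Wdr33 missing). TGACG occurred for 2 of the 3 genes called higher in KO RS, 1 of 5 called lower and 7 of 19 not called. Of all 32851 windows, 20.8% held it, a share of windows and not of genes. Enrichment was not tested. The full element TGACGTCA, which contains TGACG, was found in 0 of the 27 genes and in 1.79% of all windows. A match is a description of the letters and not of binding.

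Among the CPSF subunits, Fip1l1, Wdr33 and Cpsf4 were lower in KO RS libraries. Fip1l1, which bridges CPSF and the poly(A) polymerase, read 27.8, 23.5 and 30.8 CPM across WT RS libraries against 17.1, 16.9 and 16.3 CPM across KO RS libraries. The KO RS values lay close together and below all WT RS values, at -0.71 on the log2 scale (SE 0.159, edgeR adjusted p = 0.00742). Leaving out the library labelled KO RS replicate 1 gave -0.72 (adjusted p = 0.0366), and the call held without any 1 of the 12 libraries.

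Wdr33, which contacts the AAUAAA hexamer, read 68.1, 48.6 and 68.4 CPM across WT RS libraries against 39.1, 40.4 and 46.4 CPM across KO RS libraries (log2 fold change -0.56, SE 0.159, edgeR adjusted p = 0.0261). The groups did not overlap, although WT RS replicate 2 came near the KO RS values. Its call was lost without KO RS replicate 1 (-0.51, adjusted p = 0.121) or 2 (0.0923), or WT RS replicate 1 (0.0933) or 3 (0.105). Cpsf4, the zinc finger subunit CPSF30 that also contacts the hexamer, read 10.4, 8.19 and 16.02 CPM across WT RS libraries against 4.18, 4.66 and 7.62 CPM across KO RS libraries (-1.07, SE 0.280, adjusted p = 0.0169). The lowest WT RS and highest KO RS libraries were close, and the call was lost without KO RS replicate 1 (-0.91, adjusted p = 0.0952) or 2 (0.0793), or WT RS replicate 3 (0.112). The other subunits of the recognition module and the nuclease module were not called in KO RS. Cpsf1, the large scaffold subunit, was at -0.19 (adjusted p = 0.621), Cpsf2 at -0.03 (0.912), and Cpsf3, the endonuclease, at -0.35 (0.179) on the log2 scale. Sympk was at -0.25 (adjusted p = 0.446), and Cpsf4l at 0.25 (0.341).

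In cleavage factor I, which binds UGUA elements and steers the choice between proximal and distal poly(A) sites, Nudt21 read 226, 192 and 248 CPM across WT RS libraries against 144, 154 and 159 CPM across KO RS libraries. All KO RS values were below all WT RS values (log2 fold change -0.54, SE 0.128, edgeR adjusted p = 0.0102). The call was lost without the library labelled KO RS replicate 1 (-0.50, adjusted p = 0.0661) or WT RS replicate 3 (0.0555). Its partners Cpsf6 and Cpsf7, the larger subunits, were at 0.18 (adjusted p = 0.563) and -0.05 (0.902). In cleavage factor II, which links cleavage to the end of transcription, Pcf11 was at -0.17 (adjusted p = 0.444) and Clp1 at 0.27 (0.174). Associated factors were not called either. Rbbp6, a ubiquitin ligase of the cleavage complex, was at 0.18 (adjusted p = 0.483), Ssu72, a phosphatase of the RNA polymerase II tail domain, at -0.11 (0.808), and Zc3h14 at 0.17 (0.457).

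Of the polymerases, Papola and Tent5d were higher in KO RS libraries. Papola read 188, 176 and 168 CPM across WT RS libraries against 240.2, 241 and 242 CPM across KO RS libraries. The 3 KO RS values were nearly equal and above every WT RS value (log2 fold change 0.44, SE 0.132, edgeR adjusted p = 0.0322). The call was lost when libraries were scaled by total count (0.37, adjusted p = 0.0596), when leaving out the library labelled KO RS replicate 1 (0.44, adjusted p = 0.106), and without any other of the 6 RS libraries (0.0546 to 0.139). Papolb read 707, 711 and 873 CPM across WT RS libraries against 810, 1023 and 1077 CPM across KO RS libraries, which overlap (0.35, SE 0.135, adjusted p = 0.0941).

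Tent5d read 82.5, 74.1 and 72.0 CPM across WT RS libraries against 120, 133 and 120 CPM across KO RS libraries, without overlap (log2 fold change 0.71, SE 0.184, edgeR adjusted p = 0.0167). The call was lost without the library labelled KO RS replicate 1 (0.73, adjusted p = 0.0506) or 2 (0.0801), or WT RS replicate 1 (0.0533) or 3 (0.0758). The remaining polymerases were not called in RS. Tent5c was at 0.16 (adjusted p = 0.388), Tent5b at -0.08 (0.905) and Tent5a at -0.46 (0.715). Tent2, the cytoplasmic polymerase GLD2, was at -0.44 (adjusted p = 0.198), Tent4a at -0.59 (0.119), its paralogue Tent4b at -0.04 (0.894) and Papolg at -0.56 (0.19).

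Cstf2 and Tent5d lie on the X chromosome, whose genes had a higher median log2 fold change than autosomal genes at both stages. In RS, the 790 tested X-linked genes had a median log2 fold change of 0.67, with 238 called higher and 2 lower, against -0.04 for 20205 autosomal genes. Without the library labelled KO RS replicate 1, an alternative added after seeing the data, the X-linked median was 0.61, with 95 called higher and 0 lower. Leaving out others gave medians of 0.61 to 0.75, with 134 called higher without KO RS replicate 2, 115 without WT RS replicate 1 and 92 without WT RS replicate 3. The values of Cstf2 and Tent5d were above those of 42.9% and 51.9% of X-linked genes, near the middle of that chromosome. Against autosomal genes they were above 86.6% and 90.2%. In MII the X-linked median was 0.48 (0.40 to 0.56 on leaving out each library), with 87 called higher and 0 lower (9 to 101 higher on leaving out each library, lowest without KO MII replicate 2), and Cstf2 and Tent5d were above 51.6% and 76.5% of X-linked genes. Papola, on chromosome 12, is the autosomal gene among the 3 that rose. The part of the X-wide shift in the values of Cstf2 and Tent5d was not tested.

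**Figure D4:**
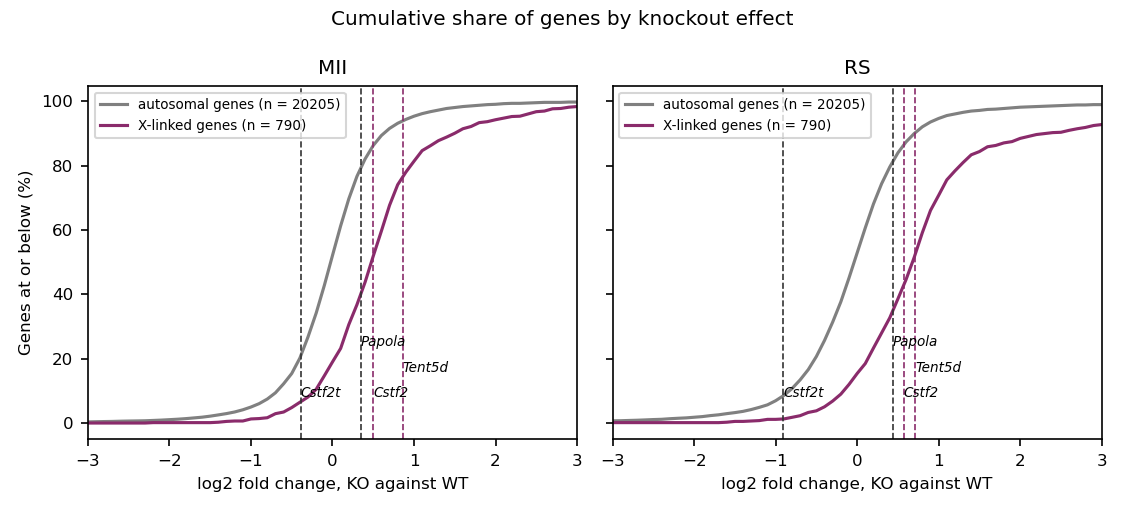
Cumulative share of autosomal (grey) and X-linked (purple) tested genes by the log2 fold change of KO against WT, in MII and RS, with dashed lines at Cstf2t, Papola, Cstf2 and Tent5d. The X-linked curve lies to the right of the autosomal curve at both stages, and the lines of Cstf2 and Tent5d cross it at 42.9% and 51.9% in RS.

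In MII libraries Tent5d was the 1 gene of the 29 called, where 3.68% of all genes were called (1.83% higher, 1.86% lower). It read 72.2, 43.7 and 41.5 CPM across WT MII libraries against 81.5, 114 and 89.3 CPM across KO MII libraries, so the highest WT MII library came near the lowest KO MII library (log2 fold change 0.86, SE 0.186, edgeR adjusted p = 0.0167). Leaving out WT MII replicate 3 ended the call (0.72, adjusted p = 0.0683), as did leaving out KO MII replicate 2 (0.71, adjusted p = 0.103) and fitting the 6 MII libraries alone (0.83, adjusted p = 0.0588). DESeq2 called Tent5d and Clp1, both higher. Without adjustment, 10 of the 29 genes had a p under 0.05, against 19.4% of all genes. The groups did not overlap for 11 of the 29 genes, where 22.2% of all genes did not overlap.

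Most genes called in RS had a value of the same sign in MII. Cstf2t read 37.0, 40.8 and 33.6 CPM across WT MII libraries against 28.9, 28.8 and 27.5 CPM across KO MII libraries, which do not overlap, but the log2 fold change of -0.39 did not pass (SE 0.175, edgeR adjusted p = 0.23). Fip1l1 was at -0.40 (adjusted p = 0.166), Nudt21 at -0.34 (0.143), Cstf2 at 0.50 (0.0878) and Papola at 0.35 (0.146), all with groups that did not overlap. Wdr33 at -0.27 (0.369), Cpsf4 at -0.57 (0.258) and Cstf1 at 0.07 (0.89) had overlapping groups. The sign in MII was that of RS for 8 of the 9 genes, all but Cstf1, and for 96.2% of the 2863 genes called in RS across the table, so the share was not larger in the module. Of the genes not called at either stage, Clp1 was at 0.39 in MII (adjusted p = 0.0939), Papolb at 0.29 (0.237) and Tent4a at -0.67 (0.132). Sympk was at -0.33 (0.382) in MII.

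The test of the difference between the KO effects of RS and MII called 0 of the 29 genes with edgeR, with DESeq2 and with limma-voom, and 4 had an unadjusted p under 0.05. Across all genes 1 gene was called (0.00470%) and 6.6% had an unadjusted p under 0.05. The 4 were Cstf1 (difference -0.69, SE 0.268), Cstf2t (-0.53, SE 0.249), Papolg (-1.13, SE 0.386) and Tent2 (-0.77, SE 0.316), all with adjusted p = 0.735. A call in RS and none in MII is therefore not shown to be a stage difference for any of these genes.

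From MII to RS in WT, 3 of the 29 genes changed, where 16.4% of all genes were called (7.74% higher, 8.68% lower). Rbbp6 rose from 218, 185 and 139 CPM in WT MII to 278, 249 and 244 CPM in WT RS libraries (log2 fold change 0.51, SE 0.151, edgeR adjusted p = 0.0259). Tent2 rose from 7.96, 4.27 and 6.30 to 9.33, 10.8 and 10.6 CPM (0.74, SE 0.225, adjusted p = 0.03). Cstf2t, with the values given above, fell by 0.65 on the log2 scale (SE 0.175, adjusted p = 0.0153). None of the 3 overlapped between stages (11 of the 29 genes and 30.5% of all genes did not), but each call was lost in some settings. Rbbp6 lost it without WT MII replicate 3 (0.0947) or WT RS replicate 1 (0.103), Cstf2t without WT MII replicate 2 (0.0506) or WT RS replicate 1 (0.0675) or 2 (0.0752), and Tent2 without WT MII replicate 2 (0.0897) or 3 (0.0704) or any 1 WT RS library (0.0536 to 0.0795). With the 6 WT libraries alone the adjusted p was 0.0889, 0.0564 and 0.078 for Rbbp6, Cstf2t and Tent2.

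In KO, 4 of the 29 genes changed from MII to RS, where 12.3% of all genes were called (4.16% higher, 8.17% lower). Of all called genes, 885 were higher and 1740 lower, and the split was 601 and 1955 when scaled by total count. Cstf2t fell again, by 1.18 on the log2 scale (SE 0.179, edgeR adjusted p = 0.000263). Papolg read 6.59, 4.80 and 5.77 CPM across KO MII libraries against 2.54, 1.33 and 1.78 CPM across KO RS libraries (-1.59, SE 0.277, adjusted p = 0.000942). Both held without any 1 of the 12 libraries, and their stages did not overlap (14 of the 29 genes and 37.0% of all genes did not).

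The other 2 calls in KO were less stable. Cpsf4l read 32.5, 37.3 and 34.6 CPM across KO MII libraries against 56.7, 59.5 and 50.7 CPM across KO RS libraries (log2 fold change 0.68, SE 0.164, edgeR adjusted p = 0.0111), lost without the library labelled KO RS replicate 2 (0.0597). Ssu72 read 9.55, 7.05 and 7.59 CPM across KO MII libraries against 4.28, 3.47 and 5.59 CPM across KO RS libraries (-0.86, SE 0.235, adjusted p = 0.0216), lost without KO MII replicate 1 (0.108) or KO RS replicate 1 (0.0752) or 2 (0.142). Of the exon bases of Ssu72, 15.1% overlap those of 1500002C15Rik on the other strand, and no source used here states the strand setting of the counting, which leaves its counts uncertain. Smaller parts of the exons of Tent4a (1.85%), Cpsf3 (3.71%) and Cpsf2 (2.56%) overlap abundant genes on the other strand. Those genes, Nsun2, Itgb1bp1 and Ndufb1-ps, had 86423, 141296 and 130158 counts in total, so the same uncertainty holds there. In WT the changes of Papolg (-0.46, adjusted p = 0.278), Cpsf4l (0.40, 0.102) and Ssu72 (-0.63, 0.0731) had the same signs and did not pass.

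**Figure D5:**
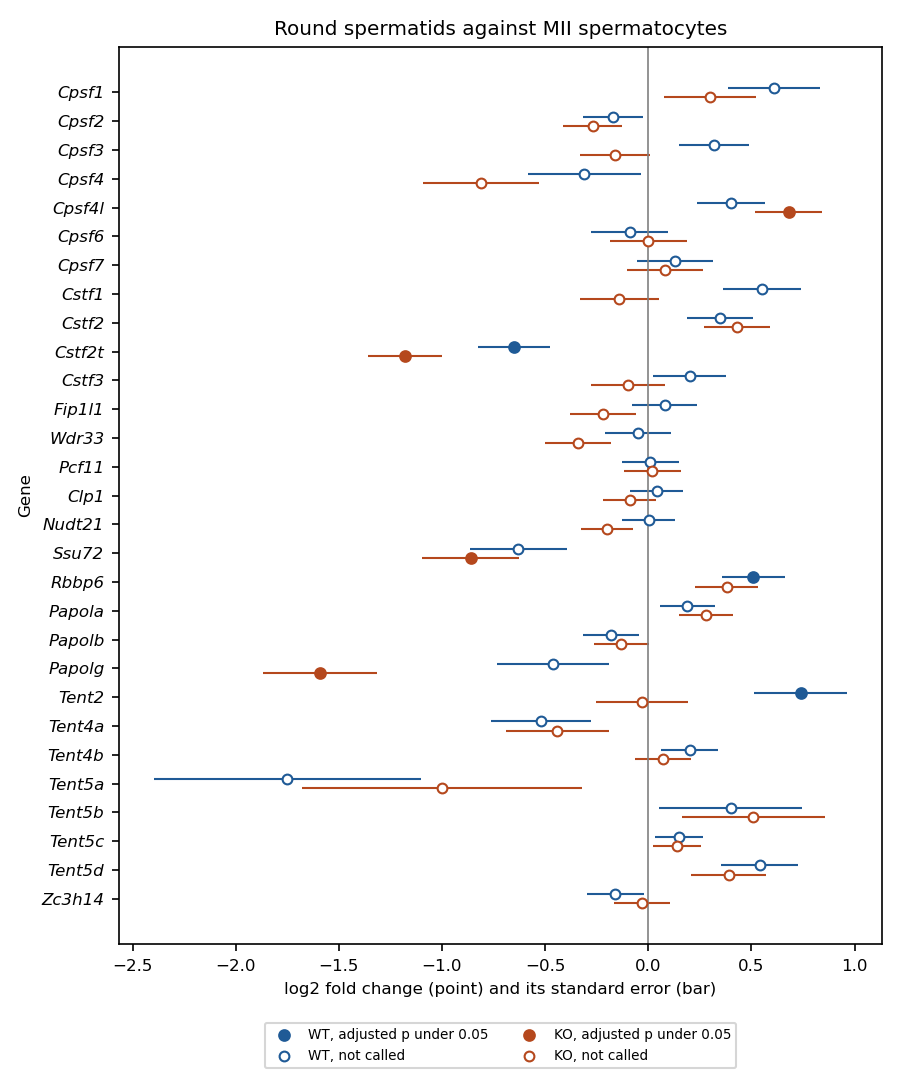
Log2 fold change of RS against MII for the 29 genes, with its standard error as a bar, in WT (blue) and KO (red), filled where the adjusted p was under 0.05. Cstf2t is filled in both genotypes, Rbbp6 and Tent2 in WT, and Papolg, Cpsf4l and Ssu72 in KO.

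Of 77 further genes of 3' end formation in 7 lists, 76 were tested. In KO MII libraries 1 was higher and 1 lower, where 1.83% of all genes were called higher and 1.86% lower. In KO RS libraries 5 were higher and 9 lower, where 6.06% of all genes were called higher and 7.39% lower. The shares of the 76 genes were not tested against these backgrounds. In nuclear poly(A) binding and export, 2 of 11 were lower in RS, the export cofactor Nxt1 (261 ± 44.1 CPM in WT, 142 ± 13.0 in KO, mean ± SD, n = 3, log2 fold change -0.88, edgeR adjusted p = 0.00138) and Zc3h3 (-0.77). Nxt1 was also the gene called lower in MII (-0.55, adjusted p = 0.0494), a call lost without any of 9 of the 12 libraries (0.0554 to 0.178). Of 23 genes of termination and of the RNA polymerase II tail domain, Scaf4, which holds back early termination (-0.85), Wdr82 (-0.94) and Rprd2 (-0.59) were lower and Ppp1ca was higher (2.33), with 2, 6 and 8 counts in WT RS against 49, 25 and 4 counts in KO RS libraries, which overlap. Of 11 U1 snRNP proteins and regulators of poly(A) site choice, Snrnp70, the U1-70K protein of the snRNP that shields early poly(A) sites (15.2 ± 0.694 CPM in WT, 7.57 ± 1.51 in KO, n = 3, -1.01, adjusted p = 0.00755 in edgeR), and Elavl1 (-1.01) were lower and Mbnl1 was higher. Mbnl1 had 0, 8 and 0 counts in WT RS against 40, 8 and 16 counts in KO RS libraries, and its fitted log2 fold change of 3.09 went from 2.42 without KO RS replicate 1 to 7.38 without WT RS replicate 2, so its size is not determined here. Of 7 genes that control cytoplasmic polyadenylation, Dazl, a germ cell activator of translation (0.75), Pum2, a repressor that binds 3' UTRs (0.53), and the element-binding protein Cpeb4 (0.50) were higher and its relative Cpeb3 (-0.73) lower in RS, and Dazl was the gene called higher in MII (1.24). Tut1 (-0.75) was the call among 5 other nucleotidyltransferases.

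Of the 76 further genes tested, Nxt1, Snrnp70 and Wdr82 were the 3 still called in RS without the library labelled KO RS replicate 1, at -0.82, -0.97 and -1.13. In that setting 4.95% of all genes were called. Nxt1 and Snrnp70 held without any 1 of the 12 libraries, and Wdr82 lost its call without KO RS replicate 2 (0.0731) or WT RS replicate 3 (0.0595). Scaf4 (0.0559) and Cpeb3 (0.0651) lost theirs on leaving out KO RS replicate 1 alone, and the other 9 also on leaving out others. With all 12 libraries, Ppp1ca was not called by limma-voom (0.17) or with the replicate number as a block (0.0587), Elavl1 not by DESeq2 (0.0556), Cpeb4 not with total count scaling (0.0674) and Rprd2 not with no filter (0.054). None of the 5 histone 3' end genes was called in RS (edgeR, 0 with an unadjusted p under 0.05, 0 by DESeq2), nor any of 14 Integrator genes (edgeR, 4 with an unadjusted p under 0.05, 1 by DESeq2). From MII to RS in WT, 7 of the 76 were higher and 8 lower, among them Alyref (-1.64), Thoc7 (-0.92), Srsf3 (-0.87), Slbp, the histone stem-loop binding protein (-0.66), and Mbnl1 (mean 2.45 CPM at MII, 0.0827 CPM at RS) with falls, and Ctdp1 (0.61), Ints3 (1.04), Casp8ap2 (0.99) and Paf1 (0.69) with rises. In KO 2 were higher and 10 lower. Of all genes, 7.74% were called higher and 8.68% lower between the stages in WT, and 4.16% and 8.17% in KO.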

How the data were processed

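RNA from sorted cells was primed with oligo(dT) and amplified by Smart-seq2, per the labels' protocols, so counts can depend on tail length as well as on abundance. The authors deposited whole-number counts per gene. STAR 2.7.10a, Trim Galore 0.6.7, DESeq2 and featureCounts 2.0.2, with mm10, are named in the submitters' processing notes. Which annotation, strand option and rule for multiply aligned reads were used is not given there. Exon lengths came from the deposited table (unit: other, in bases).

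Genes passing filterByExpr of edgeR 4.0.16 (minimum count 10, minimum total count 15) were scaled by TMM and tested with the robust quasi-likelihood F test, fitted to all 12 libraries with 4 group means (8 residual degrees of freedom). Benjamini-Hochberg adjustment ran over all 21291 genes, with calls at an adjusted p under 0.05. The SE was derived from the log2 fold change and F, as their ratio after taking the root of F. The biological coefficient of variation was 22.28%. An exact permutation test of 3 libraries against 3 has 0.1 as its smallest two-sided p and was not used.

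The 29 genes, the 7 further lists and the marker lists were chosen with earlier results of these data known. Every gene of the module is reported. Values in every library are given for genes called in a KO comparison or between stages, and further genes are named where called in a KO comparison, or where among the 2 smallest adjusted p of their list between the WT stages and called. Alternatives were DESeq2 size factors, total count scaling, no filter, 5 CPM in 3 libraries, DESeq2 1.42.0, limma-voom (limma 3.58.1), the replicate number as a block, the compared libraries alone, and each library left out. Shares per exon length were recomputed without the length. No pair of libraries within a group agreed within sampling noise (chi-square divided by degrees of freedom between 8.98 and 88.0).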

Additional observations from a re-analysis of the deposited data

Results flagged for a closer look

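For 2 genes every KO library lay on 1 side of the WT mean in MII and on the other side in RS. At MII, Papolg read 3.49, 4.81 and 3.22 CPM (WT) and 6.59, 4.80 and 5.77 CPM (KO). At RS it read 3.00, 2.61 and 2.77 CPM (WT) and 2.54, 1.33 and 1.78 CPM (KO). The KO effect in RS minus that in MII was -1.13 on the log2 scale (unadjusted p = 0.00836, adjusted p = 0.735, edgeR). Its counts were between 37 and 183 per library. At MII, Tent2 read 7.96, 4.27 and 6.30 CPM (WT) and 9.23, 6.87 and 7.11 CPM (KO). At RS it read 9.33, 10.8 and 10.6 CPM (WT) and 7.23, 8.56 and 6.82 CPM (KO). Its difference was -0.77 (unadjusted p = 0.0241, adjusted p = 0.735, edgeR). Neither difference passed the test, and neither passed on leaving out any 1 of the 12 libraries (lowest adjusted p 0.186 for Papolg and 0.348 for Tent2). In MII the WT and KO libraries of both genes overlapped, and in RS they did not.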

How the results depend on the processing

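Main counts of called genes among the 29 were 1 (KO against WT in MII), 9 (in RS), 0 (difference), 3 (RS against MII in WT) and 4 (in KO). In MII DESeq2 called 2 (7.02% of all genes), the 6 libraries compared called 0 (2.07%), and leaving out each library gave 0 to 1 (0.674% to 4.35%). In RS every alternative that kept all compared libraries called 8 or 9 (9.18% to 22% of all genes). The all-gene share was highest with 5 CPM in 3 libraries, where 9 of the 27 members tested were called (33.3%). It was lowest with no filter, where 9 of the 29 were called (31.0%). Leaving out each library gave 2 to 9 in RS (4.95% to 16.4% of all genes). The stage comparison in WT gave 7 with DESeq2 (20.0% of all genes called), 6 with limma-voom (17.7%) and 6 with no filter (9.99%). It gave 0 with the 6 WT libraries alone (10.6%) and 0 to 4 leaving out each library (8.15% to 17.9%). The stage comparison in KO gave 10 with the 6 KO libraries alone (22.8% of all genes called) and 2 to 6 leaving out each library (5.02% to 15.1%). The difference stayed at 0 in all alternatives run. The cause of these moves was not tested, except that leaving out a library or fitting 6 libraries leaves fewer samples. With the replicate number as a block the counts were 1, 9, 0, 3 and 5 (3.49%, 12.6%, 0.0141%, 15.7% and 11.9% of all genes). Deviations of same-numbered libraries had correlations of -0.203 to 0.287, not above 0.1 for all 3 numbers of any pair of groups. Between KO MII and KO RS they were 0.287, 0.0836 and 0.155. With 3 numbers per group, these values do not settle whether the numbers pair the samples. Without division by exon length the Papolb share was 84.7%, 84.2%, 81.0% and 79.9% in WT MII, KO MII, WT RS and KO RS, the Cstf2t share 46.1%, 31.9%, 29.8% and 13.2%, and the Cpsf4l share 71.4%, 78.4%, 79.6% and 90.9%. Of 128 member values not called, the 2519 recomputed values changed sign 93 times (largest size 0.35) and were called 34 times. Over all genes, the count in MII (784) was 1495 with DESeq2, 1440 with no filter, 403 with the libraries compared and 147 to 976 leaving out each library. That in RS (2863) was 1080 to 3573 leaving out each library. The difference (1) was 19 with DESeq2, 65 with no filter and 3 with the block. The stage count in WT (3497) was 2108 with the libraries compared and 1776 to 3980 leaving out each library, and that in KO (2625) was 4451 and 1096 to 3286. Depth limits Tent5a (2 to 22 counts per library).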
